A study of Macaca mulatta with 51 samples.

Results

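Adiponectin and leptin are hormones that adipocytes release into the circulation, and the 4 genes described here encode the proteins that bind them. ADIPOR1 (ENSG00000159346) and ADIPOR2 (ENSG00000006831) encode the adiponectin receptors, CDH13 (ENSG00000140945) encodes T-cadherin, and LEPR (ENSG00000116678) encodes the leptin receptor. They were picked by symbol from the gene count table of a study of fibroblast growth factor 21 (FGF21), a hormone made mainly by the liver, in obese rhesus macaques. They are 4 of the 16033 genes in that table, and all 4 passed the filter on low counts in both tissues.

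The animals were 10 obese but non-diabetic macaques aged 11 to 22 years, of which 5 were male and 5 were females without ovaries. They had been kept on a diet rich in fat for 2 years or longer. All received native human FGF21 by daily injection under the skin for 12 weeks at rising doses, and 1 animal was kept on a lower final dose than the others. Punch biopsies of abdominal subcutaneous adipose tissue (AT) and gastrocnemius skeletal muscle (SM) were taken pre-treatment, post-treatment at week 12, and at washout 16 weeks after the last dose, and polyadenylated RNA was sequenced. Counts were held for 27 AT libraries (10 pre-treatment, 9 post-treatment, 8 washout, from 10 animals) and 21 SM libraries (6, 8 and 7, from 8 animals). There was no untreated cohort, so time points were compared within animals, and treatment, weight loss and elapsed time cannot be told apart. Not every animal had counts at both time points of a comparison. For post-treatment vs pre-treatment, washout vs post-treatment and washout vs pre-treatment, 9, 8 and 8 animals did in AT. In SM 6, 7 and 6 did. All groups shared the obesity and the diet.

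ADIPOR1 and ADIPOR2 belong to the progestin and adipoQ receptor (PAQR) family of membrane proteins with their amino end inside the cell. ADIPOR1 is the main adiponectin receptor of skeletal muscle and is linked to AMP-activated kinase (AMPK), while ADIPOR2 is best known from liver and is linked to the nuclear receptor PPARA. T-cadherin is an unusual cadherin held in the membrane by a lipid anchor, abundant on vascular cells and muscle, and binds the large multimers of adiponectin. The leptin receptor is a type I cytokine receptor that signals through the kinase JAK2 and the transcription factor STAT3, and its best known site of action is the hypothalamus.

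The 48 libraries held between 14455195 and 23940980 counts (median 18578869), and the counts of the 4 receptors (78 to 17124 per library) are given with the spread between animals. The labelled tissues carried their own markers. Summed over 6 measured adipocyte markers, AT libraries held 9237 to 30722 CPM (counts scaled to a common library size) and SM libraries 291 to 1783. Pre-treatment, edgeR called 5 of these 6 markers higher in AT than in SM and 1, GPD1, lower, where 77.0% of all genes tested were called. The GPD1 call was made under 2 of 4 alternatives. Summed over 10 measured myofibre markers, SM libraries held 55245 to 287878 CPM and AT libraries 78.1 to 216. The post-treatment SM library of animal 21189 stood apart, with the lowest myofibre sum of all SM libraries (55245 CPM) and the highest sum of 10 stromal progenitor markers (17567 CPM), and SM changes are given with and without it. CPM were scaled by the trimmed mean of M values (TMM) within a tissue unless stated otherwise. A gene is called DE when its adjusted p in edgeR's quasi-likelihood test is under 0.05 and its log2 fold change is beyond 0.26 in either direction.

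In AT, ADIPOR2 fell and LEPR rose from pre-treatment to post-treatment, while ADIPOR1 and CDH13 were not DE. That is 2 of the 4 receptors, against 14.5% of all 13367 genes tested in AT. The 2 called receptors went in opposite directions.

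ADIPOR2 stood at 437 CPM in the lowest, 559.6 in the median and 746 in the highest of the 10 pre-treatment AT libraries. In the 9 post-treatment libraries these levels were 184, 301.2 and 649 CPM, and in the 8 washout libraries 319, 469 and 639.7 CPM. Of the post-treatment libraries, 5 lay below every pre-treatment library, and the ranges of these groups overlapped. The log2 fold change from pre-treatment to post-treatment was -0.75 (SE 0.18, edgeR adjusted p = 0.0145), and ADIPOR2 was lower in 9 of 9 animals. The decreases were uneven, from -0.15 on the log2 scale in animal 20456 to -1.84 in animal 22130. ADIPOR2 was DE under all 9 alternative settings (adjusted p from 8.09e-04 to 0.0331) and with each of the 10 animals left out in turn (adjusted p from 0.0104 to 0.0435).

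LEPR was measured at 58.9, 107 and 185 CPM in the lowest, median and highest pre-treatment AT library. Post-treatment these were 94.0, 187 and 393 CPM, and at washout 63.0, 82.3 and 141 CPM. The post-treatment group was the highest of the 3, with 5 of 9 libraries above every pre-treatment library and 5 of 9 above every washout library. The log2 fold change from pre-treatment to post-treatment was 0.87 (SE 0.23, edgeR adjusted p = 0.0209), with LEPR higher in 8 of 9 animals. Animal 20275 was the exception, with 185 CPM pre-treatment, the highest of that group, and 111 CPM post-treatment. The call is less firm than that of ADIPOR2. It was lost without the replicate block, that is, without animal as a term (log2 fold change 0.75, adjusted p = 0.0542), in a fit of the 2 time points alone (0.83, adjusted p = 0.0536), and without animal 21189 (0.81, adjusted p = 0.0514).

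ADIPOR1 was the steadiest of the 4 receptors in AT, with 153, 185 and 223 CPM (lowest, median, highest) pre-treatment, 157, 174 and 203 CPM post-treatment and 147, 166 and 188 CPM at washout. The 3 ranges overlapped, with 3 of 10 pre-treatment libraries above every post-treatment library and 5 above every washout library. Its post-treatment change was -0.080 on the log2 scale (SE 0.072, edgeR adjusted p = 0.459), lower in 5 of 9 animals. CDH13 ranged from 109 to 254 CPM pre-treatment (median 166), from 109 to 204 CPM post-treatment (median 152) and from 88.8 to 259 CPM at washout (median 159). Its post-treatment change was -0.11 (SE 0.15, edgeR adjusted p = 0.637), also lower in 5 of 9 animals, and single animals ranged from -0.79 to 0.45. The test did not separate either gene from no change at this spread.

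**Figure D1:**
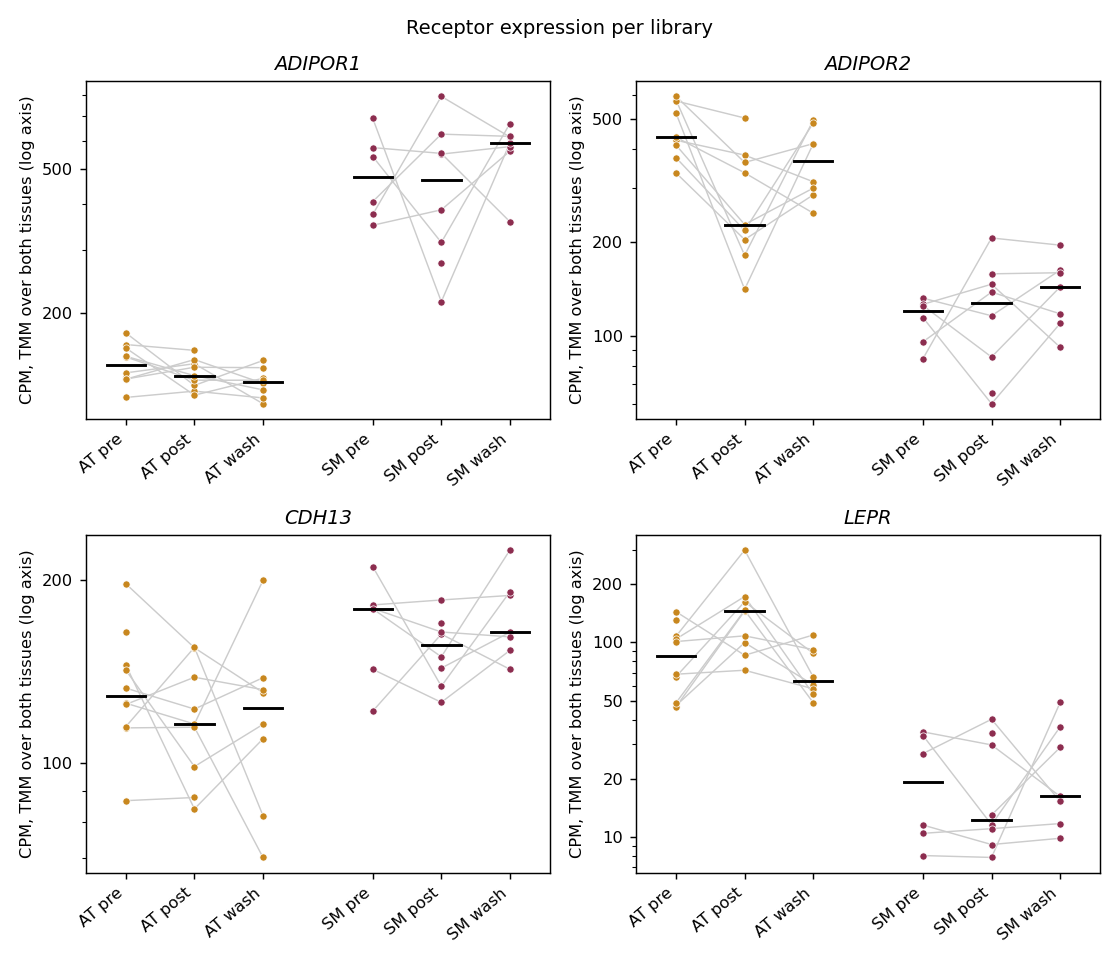
Level of each receptor in every library, in CPM scaled by TMM over both tissues, on log axes that differ between panels. Points are libraries, grey lines join the libraries of 1 animal within a tissue, and black bars are group medians. Among the AT groups, ADIPOR2 is lowest post-treatment (median 229 CPM on this scale) and LEPR is highest (145 CPM). Every SM library lies above every AT library for ADIPOR1.

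When treatment was withdrawn, LEPR fell in AT. Its log2 fold change from post-treatment to washout was -1.01 (SE 0.24, edgeR adjusted p = 0.00374), and it was lower at washout in 7 of 8 animals. It was the 1 receptor of 4 called, against 34.0% of all genes tested, and stayed called under all 9 alternatives and with each animal left out. Animal 20275, whose LEPR had not risen post-treatment, was again the exception, going from 111 to 141 CPM. ADIPOR2 did not pass, with a log2 fold change of 0.48 (SE 0.19, edgeR adjusted p = 0.0551), higher at washout in 6 of 8 animals. That value lies close to the threshold. It passed under 3 of the 9 alternatives and without animal 20261, 20456 or 23004 (adjusted p from 0.0205 to 0.0399). ADIPOR1 changed by -0.073 (SE 0.075, edgeR adjusted p = 0.472) and CDH13 by -0.067 (SE 0.16, edgeR adjusted p = 0.765), and both changes became positive when libraries were scaled by size alone (0.0029 and 0.0088).

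From pre-treatment to washout none of the 4 receptors was called by edgeR in AT, where 19.8% of all genes tested were. The log2 fold changes were -0.15 for ADIPOR1 (SE 0.075, adjusted p = 0.164), -0.27 for ADIPOR2 (SE 0.19, adjusted p = 0.337), -0.18 for CDH13 (SE 0.15, adjusted p = 0.451) and -0.15 for LEPR (SE 0.23, adjusted p = 0.699). The unadjusted p was above 0.05 for all 4, and voom and DESeq2 called none. ADIPOR2 was called in the fit of these 2 time points alone (-0.33, adjusted p = 0.0481). At washout 4 of 8 libraries still lay below every pre-treatment library for ADIPOR2.

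**Figure D2:**
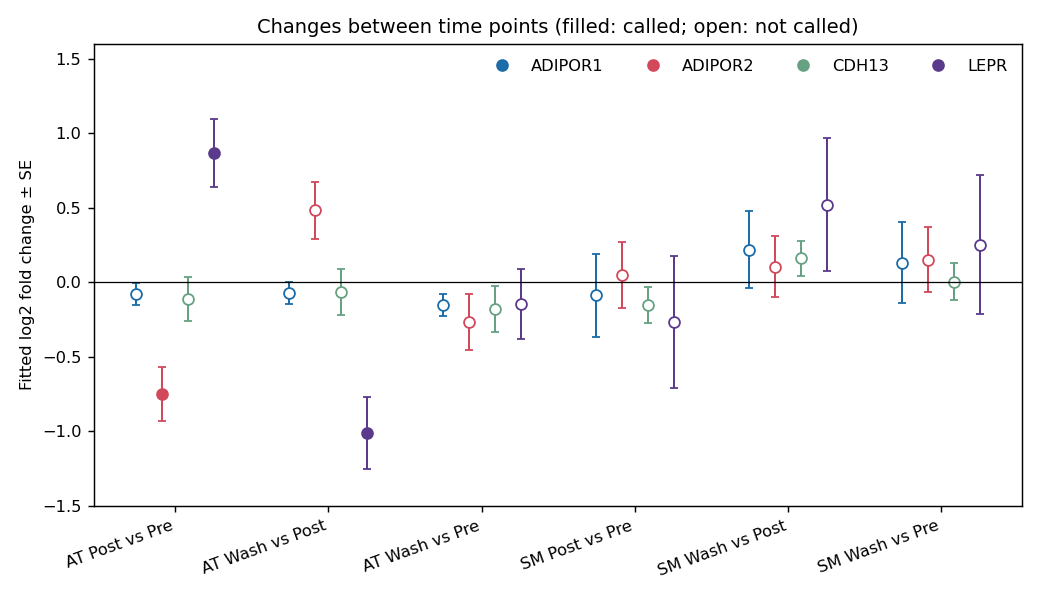
Fitted log2 fold change of each receptor for the 3 pairs of time points in AT and in SM, with the SE as bars. Filled points are DE and open points are not. ADIPOR2 and LEPR in AT post-treatment vs pre-treatment (-0.75 and 0.87) and LEPR at washout vs post-treatment (-1.01) are the filled points, and the bars are widest for LEPR in SM.

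The ligands did not follow a common course either. LEP, which encodes leptin, had a median of 2763 CPM pre-treatment (range 1691 to 4011), 635 CPM post-treatment (164 to 2475) and 2553 CPM at washout (1378 to 4172) in AT. LEP fell post-treatment (log2 fold change -1.93, SE 0.34, edgeR adjusted p = 0.00329, lower in 9 of 9 animals) and rose at washout (1.87, SE 0.36, edgeR adjusted p = 8.41e-04, higher in 8 of 8). LEPR was called in the opposite direction to its ligand in both steps, but not in every animal. Animal 20275 had the deepest LEP fall (-4.12 on the log2 scale) and the largest LEP rise at washout (3.92), and its LEPR changed by -0.74 and 0.34. ADIPOQ, which encodes adiponectin, ranged from 1641 to 4469 CPM pre-treatment, from 1469 to 4604 CPM post-treatment and from 1166 to 4328 CPM at washout. It was not DE in edgeR in any AT comparison (log2 fold changes -0.21, -0.25 and -0.46, adjusted p = 0.515, 0.380 and 0.142). Voom called ADIPOQ lower at washout vs post-treatment, and at washout vs pre-treatment 1 of the 2 ligands was called lower with voom, with 2 time points alone and with identifier series. In SM, ADIPOQ reached at most 128 CPM and LEP at most 92.1 CPM, and animal 24849 held the highest of both pre-treatment and post-treatment.

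Markers of the cells of the biopsy were followed over the same AT time points, where 14.5% (post-treatment) and 34.0% (washout vs post-treatment) of all genes were called. A bulk sample cannot tell fewer cells of a type from less RNA per cell. The sum of 12 macrophage markers ranged from 812 to 3262 CPM pre-treatment (median 1967), from 1474 to 9079 CPM post-treatment (median 3888) and from 569.6 to 3298 CPM at washout (median 989). Of the 12 markers, 4 rose post-treatment (C1QA, C1QB, C1QC and LYZ) and all 12 fell at washout. The 4 rises were lost in the fit without the pre-treatment AT library of animal 20275 and with 2 time points alone. Of 10 progenitor markers, 2 rose post-treatment (COL1A1 and DPP4) and 4 fell at washout, and their sum ranged from 15315 to 34334 CPM, from 19203 to 43833 CPM and from 11538 to 38115 CPM in the order of time. Of 6 adipocyte markers 1 fell post-treatment (PLIN1), 1 fell at washout (ACVR1C), and the sum ranged from 14722 to 30722, from 9760 to 28449 and from 9237 to 27384 CPM. No marker of these 3 lists was at 0 in any group. The animal with the deepest ADIPOR2 decrease, 22130, had the lowest adipocyte sum of the post-treatment AT libraries (9760 CPM, from 26472 CPM pre-treatment) and the highest progenitor sum (43833 CPM). Animal 20275, with the next deepest decrease and the fall in LEPR, had the highest macrophage sum (9079 CPM). The adipocyte sum of animal 20275 was also low (11318.5 CPM, from 25468 CPM pre-treatment). Animal 20456, with the smallest ADIPOR2 decrease, had the highest post-treatment adipocyte sum (28449 CPM). Animals 20261 and 23004, with ADIPOR2 changes of -0.17 and -0.34, had adipocyte sums of 15580 and 13771 CPM. For the progenitor and macrophage sums, other animals did not pair in this way. Animals 26292 and 23004 had progenitor sums almost as high as that of animal 22130 (42122 and 41641 CPM), with ADIPOR2 changes of -0.67 and -0.34. Animal 21189 had the next highest macrophage sum (7100 CPM), and its LEPR changed by 1.28. Without the pre-treatment library of animal 20275, 1 progenitor and 0 adipocyte markers were called post-treatment in edgeR. The progenitor and adipocyte counts lie near or below the shares of all genes. Of 4 T cell markers CD8A rose post-treatment and fell at washout. Of 3 erythroid markers tested SLC4A1 fell post-treatment, called under 3 of 8 alternatives, and all 3 rose at washout (ALAS2, HBB and SLC4A1), though 0 were called by voom or without the replicate block. HBA1 and HBA2 were at 0 in all groups. The erythroid sum ranged from 327 to 10553 CPM pre-treatment, from 454 to 7643 CPM post-treatment and from 457 to 11988 CPM at washout. Of 5 mural markers none was called by edgeR post-treatment (DESeq2 called 1) and ACTA2 rose at washout, and none of 10 myofibre markers was called by edgeR in either step. Without the pre-treatment library of animal 20275 the receptor changes were -0.71 for ADIPOR2 (edgeR adjusted p = 0.0331) and 0.96 for LEPR (adjusted p = 0.0229). The part of these cells in the receptor changes was not tested.

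T-cadherin is abundant on vascular cells, so the endothelial list is given beside CDH13. None of its 10 measured markers was called by edgeR post-treatment (1 was called by voom), and 5 rose at washout vs post-treatment, when their sum went from a median of 1386 CPM (870.1 to 2090) to 2029 CPM (1048 to 2925). CDH13 was not DE in either step. The highest pre-treatment CDH13 library (animal 21866) and the lowest and highest washout libraries (22130 and 21189) were also those of the progenitor sum. The lowest pre-treatment library was not (20456 for CDH13 and 22130 for progenitors), nor were the post-treatment extremes. The washout library of animal 21189 also had the highest endothelial (2925 CPM) and mural (4382 CPM) sums of its group.

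Library identifiers fell into 3 runs of numbers, here the first, middle and last series, and the sources used here do not say what the runs mark. Of the 9 AT animals with both time points, 6 had pre-treatment and post-treatment libraries in the last series. Within them ADIPOR2 was lower in 6 of 6 (mean log2 change -0.80) and LEPR higher in 5 of 6 (0.66). In the 2 animals within the middle series the mean changes were -0.25 and 1.64, and animal 22130 had libraries in different series. From post-treatment to washout 3 animals stayed in the last series, where LEPR was lower in 3 of 3 (-1.26) and ADIPOR2 higher in 2 of 3 (0.18). With the series as a term beside animal, the calls in AT were the same.

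The ratio of ADIPOR2 to ADIPOR1 was taken within each library, where it does not depend on library size or scaling. It rests on the same counts as the ADIPOR2 fall and is not evidence independent of it. It is a ratio of counts without a length correction, so that it compares libraries and not the levels of these genes. In AT the ratio of ADIPOR2 to ADIPOR1 counts had a median of 3.04 pre-treatment (2.57 to 4.38), 1.92 post-treatment (1.12 to 3.19) and 2.80 at washout (1.90 to 3.87). It was lower post-treatment in 9 of 9 animals, with a mean log2 change of -0.71 ± 0.59 (SD, n = 9), a factor of 0.611, and an exact sign-flip permutation test gave a two-sided p = 0.00391, the smallest 9 animals allow (adjusted over 6 comparisons, p = 0.0234). At washout it was higher in 7 of 8 animals than post-treatment (0.61 ± 0.71 on the log2 scale, exact p = 0.0547, adjusted p = 0.164). Without animal 23004 the latter adjusted p was 0.0469. From pre-treatment to washout the mean log2 change was -0.17 ± 0.24 (lower in 7 of 8, exact p = 0.0859, adjusted p = 0.172), and 0.0469 was the adjusted p without animal 24849. In SM the ratio ranged from 0.166 to 0.378 in all libraries and did not pass between any time points (mean log2 changes 0.18, -0.14 and 0.018, exact permutation p from 0.203 to 0.906). Without animal 21189 these changes were 0.060, -0.068 and -0.011.

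**Figure D3:**
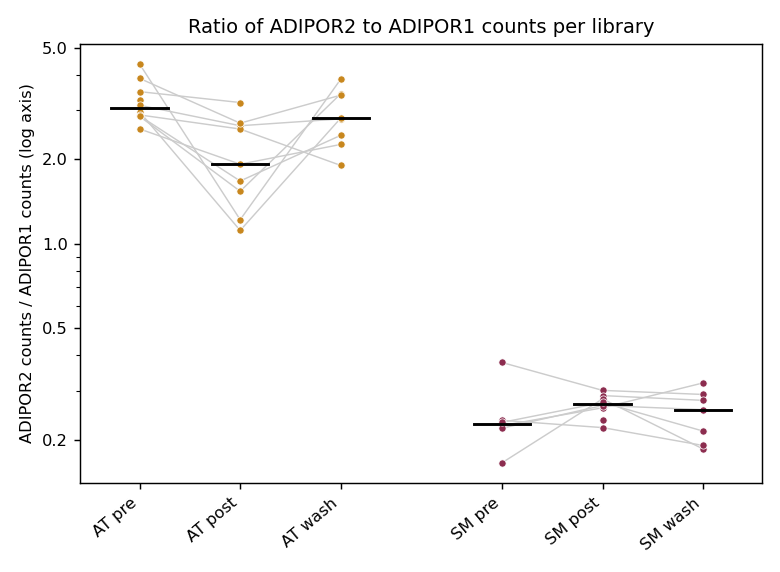
Ratio of ADIPOR2 counts to ADIPOR1 counts in every library, on a log axis and without length correction. Points are libraries, grey lines join the libraries of 1 animal and black bars are medians (3.04, 1.92 and 2.80 in AT; 0.228, 0.269 and 0.256 in SM). All AT libraries lie above all SM libraries, and the AT ratio is lowest post-treatment.

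Whether the receptors moved together was examined over the 9 AT animals, for 6 pairs of receptors. The changes of ADIPOR2 and LEPR had the closest relation (Pearson's r = 0.775, exact permutation p = 0.0159, adjusted over 6 pairs p = 0.0956, Spearman's rho = 0.683, exact p = 0.0503, adjusted p = 0.302), which did not pass the correction. The animals with the deepest ADIPOR2 decreases, 22130 and 20275, had LEPR changes of 0.11 and -0.74, and without these 2 farthest animals r was 0.38. The relation therefore rests on them. Within the last series r was 0.71 (6 animals). For the other 5 pairs r lay between -0.19 and 0.24, with exact permutation p values from 0.546 to 0.933.

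**Figure D4:**
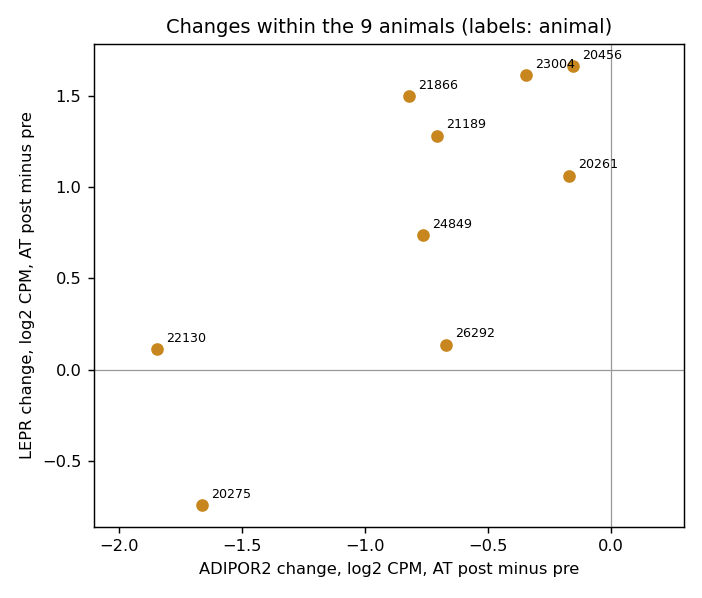
Change of ADIPOR2 (x axis) against change of LEPR (y axis) from pre-treatment to post-treatment in AT, in log2 CPM. Each point is 1 of 9 animals, labelled by its number. All 9 points lie left of 0 for ADIPOR2 and 8 lie above 0 for LEPR, with animals 20275 and 22130 at the lower left.

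In SM none of the receptors was DE between time points in the edgeR fit. The percentage of all 12617 genes called was itself 0 post-treatment vs pre-treatment (323 genes had an unadjusted p under 0.05, and voom and DESeq2 also called 0), 0.135 at washout vs post-treatment and 0.0238 at washout vs pre-treatment. Adjusted p values of the 4 receptors were 0.524 or higher, and no unadjusted p was under 0.05. The standard errors for LEPR in SM were 0.44 to 0.47, against 0.23 to 0.24 in AT.

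ADIPOR1 in SM spread from 261 to 499 CPM pre-treatment (median 347), from 158 to 567.9 CPM post-treatment (median 334) and from 261 to 449 CPM at washout (median 422). ADIPOR2 spread from 65.0 to 98.6 CPM (median 86.8), from 44.2 to 148 CPM (median 92.7) and from 67.0 to 138 CPM (median 96.6). The spread of both was widest post-treatment. In that group the libraries of animals 21189, 21866, 24849 and 20275 had the lowest ADIPOR1 (158, 199, 230.1 and 277 CPM) and the lowest ADIPOR2 (44.2, 47.0, 62.6 and 83.3 CPM). The same 4 libraries had the lowest myofibre sums (55245, 102964, 109681 and 131922 CPM, against 257007 to 287878 CPM in the other 4) and the highest progenitor sums (17567, 15185, 5582 and 7740 CPM, against 310.4 to 659 CPM in the other 4). How far the makeup of the punch set the receptor levels was not tested.

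The fitted change of ADIPOR1 in SM post-treatment was -0.088 (SE 0.28, edgeR adjusted p = 0.9998), and 0.14 without the post-treatment library of animal 21189. ADIPOR2 changed by 0.048 (SE 0.22), and by 0.20 without that library, with 4 of 8 post-treatment libraries above and 3 below every pre-treatment library. At washout vs post-treatment ADIPOR1 changed by 0.22 (SE 0.26, edgeR adjusted p = 0.719) and ADIPOR2 by 0.10 (SE 0.21, adjusted p = 0.839), and without the same library by 0.065 and 0.011. With identifier series as a term beside animal, the washout change of ADIPOR1 was 0.94 and was called (edgeR adjusted p = 0.0105). Within the last series it was higher at washout in 2 of 2 animals (mean 1.19), and in the 5 animals whose libraries lay in different series the mean was -0.10. Both animals of the last series, 21189 and 24849, are among the 4 with low myofibre sums post-treatment, so series and biopsy makeup cannot be told apart here.

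LEPR was low in SM, from 5.85 to 25.9 CPM pre-treatment (median 14.2), from 5.56 to 29.6 CPM post-treatment (median 8.91) and from 6.98 to 35.9 CPM at washout (median 11.6). The 21 libraries held 78 to 697 LEPR counts each, and the groups overlapped nearly in full. The post-treatment change was -0.27 (SE 0.44) and the washout change 0.52 (SE 0.45). Neither passed, and without the post-treatment library of animal 21189 they were -0.081 and 0.37. The highest LEPR library at washout, of animal 22130, also had the highest progenitor (5989 CPM), endothelial (413 CPM), mural (465 CPM) and macrophage (384 CPM) sums of its group. Post-treatment this was not so. There the highest progenitor (17567 CPM), mural (751 CPM) and macrophage (247 CPM) sums were those of animal 21189, whose LEPR stood at 8.51 CPM. The highest LEPR was that of animal 24849. CDH13 in SM ranged from 93.9 to 155 CPM (median 129.8), from 90.3 to 131 CPM (median 113) and from 100.7 to 150.3 CPM (median 116). Its changes were -0.16 (SE 0.12) and 0.16 (SE 0.12), and -0.17 and 0.21 without the post-treatment library of animal 21189. From pre-treatment to washout the SM changes were 0.13 for ADIPOR1, 0.15 for ADIPOR2, 0.0040 for CDH13 and 0.25 for LEPR, and without that library 0.21, 0.21, 0.041 and 0.29.

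Whether AT and SM changed by different amounts was tested with an interaction term for 12322 genes. From pre-treatment to post-treatment none of the 4 receptors was called by edgeR, against 0.0406% of all genes. The AT change minus the SM change was -0.85 for ADIPOR2 (SE 0.31, unadjusted p = 0.00955, adjusted p = 0.323) and 1.09 for LEPR (SE 0.47, unadjusted p = 0.0286, adjusted p = 0.420), and voom called neither. The change seen in AT was therefore not shown to differ from that in SM. From post-treatment to washout LEPR was the 1 receptor called, against 21.9% of all genes. The AT change minus the SM change was -1.54 (SE 0.48, edgeR adjusted p = 0.0222). The call held without the post-treatment SM library of animal 21189 (-1.36, adjusted p = 0.0487). It was lost when libraries were scaled by size alone (-1.36, adjusted p = 0.0689), without the replicate block (-1.27, adjusted p = 0.0650) and without animal 20456, 21189, 21866, 22130 or 23004 (adjusted p from 0.0509 to 0.0782).

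Pre-treatment levels differed strongly between the tissues for 3 of the 4 receptors, in a comparison where 77.0% of all 13463 genes tested were called. On a TMM scale common to both tissues, ADIPOR1 ranged from 117 to 177 CPM in AT and from 350.1 to 691 CPM in SM, a log2 fold change of AT against SM of -1.75 (SE 0.19, edgeR adjusted p = 1.50e-10). All 21 SM libraries of the 3 time points lay above all 27 AT libraries. How many of all genes separate the tissues in this way was not counted. ADIPOR2 had the opposite order, from 335 to 592 CPM in AT and from 84.3 to 132 CPM in SM (1.96, SE 0.22, edgeR adjusted p = 8.31e-10). LEPR followed ADIPOR2, with 46.7 to 144 CPM in AT and 8.06 to 34.8 CPM in SM (2.13, SE 0.37, edgeR adjusted p = 4.29e-06). These 3 calls held under voom, DESeq2, scaling by library size alone and without the block, with log2 fold changes from -1.80 to -0.99, from 1.90 to 2.70 and from 1.94 to 2.89. CDH13 ranged from 86.8 to 197 CPM in AT and from 122 to 210 CPM in SM and was not called (-0.33, SE 0.16, edgeR adjusted p = 0.0580). Its direction depended on the scaling, at -0.39 under voom and under DESeq2 and 0.42 with library size alone, each past the threshold, and the median of all genes moved from 0.16 to 0.90 with library size alone. It was also called without animal 19832, 20261, 21189 or 21866 (adjusted p from 0.0140 to 0.0459). Of the pre-treatment libraries, 3 of 6 from SM and 0 of 10 from AT were in the first identifier series.

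Ordered by median on the common scale, ADIPOR1 went from SM washout (591 CPM), SM pre-treatment (475) and SM post-treatment (468) to AT pre-treatment (144), AT post-treatment (135) and AT washout (129). The step between the tissues is the only one between neighbours that lay beyond the spread. ADIPOR2 went from AT pre-treatment (437 CPM), AT washout (365) and AT post-treatment (229) to SM washout (144), SM post-treatment (127) and SM pre-treatment (120). LEPR went from AT post-treatment (145 CPM), AT pre-treatment (84.9) and AT washout (63.6) to SM pre-treatment (19.2), SM washout (16.2) and SM post-treatment (12.3). For ADIPOR2 no neighbouring groups of 1 tissue differed by the test, for LEPR only AT post-treatment and AT pre-treatment did, and AT and SM were tested against each other pre-treatment alone. CDH13 covered the narrowest span, from 179 CPM in SM pre-treatment to 116 CPM in AT post-treatment.

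The pathway around the receptors was described from lists of genes, whose counts are read against the 14.5% of all genes that were DE in AT post-treatment. Of 20 genes that act in adiponectin signaling, 1 rose and 1 fell. APPL2, an adaptor protein of the same family as the receptor-binding adaptor APPL1, rose from a median of 41.0 to 52.6 CPM (log2 fold change 0.41, SE 0.071, edgeR adjusted p = 0.00313), in 9 of 9 animals. PRKAA2, a catalytic subunit of AMPK, fell from 14.2 to 9.20 CPM (-0.71, SE 0.18, edgeR adjusted p = 0.0173), in 9 of 9 animals, a call lost without the replicate block. APPL1, PRKAA1 and PPARA were not DE. The list's median log2 fold change was -0.081, against 0.030 over all genes tested.

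Of the 8 other PAQR family members tested, 3 were DE. PAQR8, a membrane progestin receptor, rose from 23.4 to 43.1 CPM (0.89, SE 0.24, edgeR adjusted p = 0.0237, higher in 7 of 9 animals, lost with 2 time points alone and without the pre-treatment library of animal 20275) and fell at washout (-1.497, adjusted p = 3.15e-04). MMD fell from 689.7 to 281 CPM (-0.89, SE 0.21, edgeR adjusted p = 0.0141, lower in 8 of 9 animals) and rose at washout (0.70, adjusted p = 0.0213, called under 6 of 9 alternatives). PAQR5, another membrane progestin receptor, fell from 23.3 to 14.5 CPM (-0.60, SE 0.20, edgeR adjusted p = 0.0499, lower in 8 of 9 animals), a call that 6 of 9 alternatives did not make.

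Of 11 leptin signaling genes tested, 2 fell and none rose in edgeR. Over the alternatives 1 to 4 were called lower, 4 with voom, DESeq2 and at least 10 counts, and 1 without the pre-treatment library of animal 20275. STAT3 fell from a median of 312 to 239.9 CPM (-0.40, SE 0.078, edgeR adjusted p = 0.00535, lower in 8 of 9 animals), called under all 9 alternatives. PIK3R1, a regulatory subunit of phosphoinositide 3-kinase, fell from 358 to 233 CPM (-0.57, SE 0.19, edgeR adjusted p = 0.0479, lower in 8 of 9 animals), called under 5 of 9. JAK2 had medians of 66.5 and 65.7 CPM and was not DE. SOCS3, the feedback inhibitor of the leptin receptor, ranged from 5.26 to 35.3 CPM pre-treatment and from 11.8 to 91.0 CPM post-treatment and was not DE. The list's median was -0.026. Of 14 other type I cytokine receptors, 1 rose, IL6R, which encodes the interleukin 6 receptor (0.53, SE 0.15, edgeR adjusted p = 0.0244, higher in 8 of 9 animals), called under 7 of 9 alternatives and lost with no replicate block and without the pre-treatment library of animal 20275. None of 7 other cadherins tested and neither of 2 adiponectin assembly factors tested (ERP44 and GSTK1) was DE in the edgeR fit. Of the cadherins, DESeq2 called 3 higher, voom 1 lower and the fit without the replicate block 1 higher. Of the assembly factors, DESeq2 and the filter of at least 10 counts each called 1 lower.

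**Figure D5:**
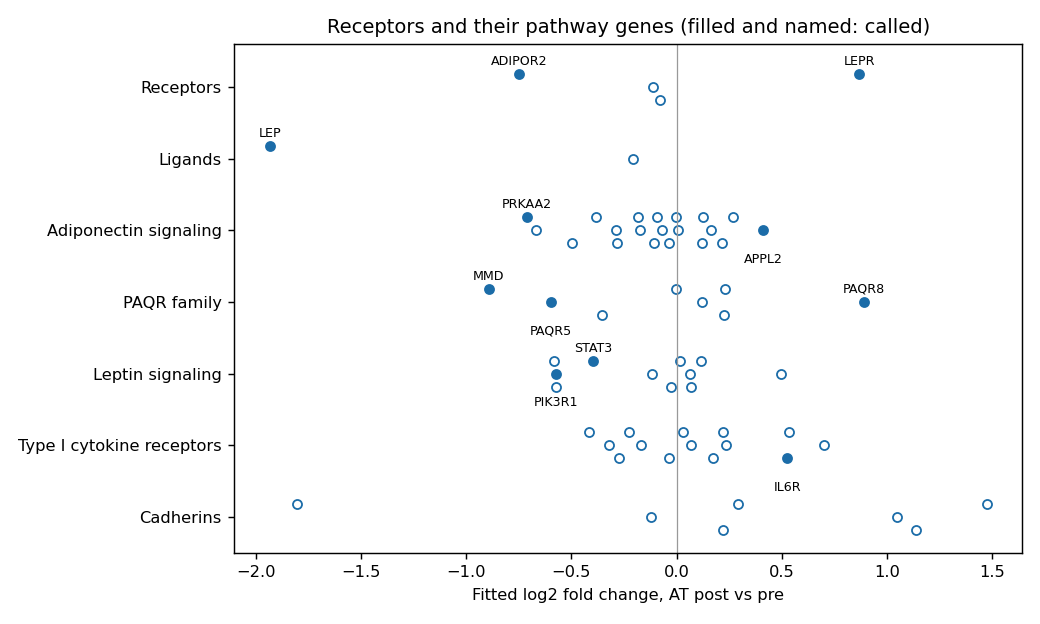
Fitted log2 fold change in AT, post-treatment vs pre-treatment, for the 4 receptors and the genes of 6 lists. Each point is 1 gene, filled and named when DE. Filled points lie on both sides of 0 in the receptor, adiponectin signaling and PAQR rows, and on the lower side alone in the ligand (LEP) and leptin signaling (PIK3R1, STAT3) rows.

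LEPROT, which in humans shares its first exons with LEPR and encodes another protein, held 1 to 25 counts per AT library and 0 to 7 per SM library, against at least 1065 LEPR counts in every AT library. How reads of shared exons were assigned is not given in the sources used here. Its AT change was 0.35 post-treatment (SE 0.45, edgeR adjusted p = 0.626). The ratio of LEPR to LEPROT counts was 205 to 1109 pre-treatment, 249 to 1499 post-treatment and 96.3 to 1060 at washout in AT. Its mean log2 change was 0.42 ± 1.43 post-treatment (SD, n = 9, exact permutation p = 0.398) and -1.42 ± 1.41 at washout vs post-treatment (n = 8, exact permutation p = 0.0234, adjusted over 3 comparisons p = 0.0703). Without animal 20275 or 21189 the adjusted p of the latter was 0.0469, and without animal 21189 so was that of washout vs pre-treatment (-1.08 ± 1.62 with all 8 animals, adjusted p = 0.152). In SM LEPROT had no counts in some libraries and no ratio was taken.

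The genes with the most similar pattern to each receptor were ranked by Pearson's r of log2 CPM over the libraries of a tissue, as a description, since libraries share animals and biopsy makeup. Over 27 AT libraries and 12139 genes, ADIPOR2 was closest to CCDC69 (r = 0.941), UBE2G2 (0.934) and BCL2L2 (0.924), and LEPR to WDR48 (0.788), ZNF160 (0.768) and POT1 (0.765). ADIPOR1 was closest to CERS2 (0.774), SPG21 (0.765) and WDR55 (0.754), and CDH13 to OLFML2A (0.822), ITGBL1 (0.789) and ABI3BP (0.779). Over 21 SM libraries and 11144 genes, ADIPOR1 was closest to RNF10 (0.971), SENP2 (0.963) and DCAF6 (0.961), and ADIPOR2 to TMLHE (0.936), POLR2M (0.934) and METAP1 (0.934). LEPR in SM was closest to TIMP3 (0.851), ALOX15 (0.835) and MFAP4 (0.831), and CDH13 to GPR107 (0.743), TMBIM1 (0.733) and TTC9C (0.717). These rankings depended on differences between animals. With animal means removed, none of the 3 genes stayed among the 3 closest for ADIPOR2 and LEPR in either tissue, or for CDH13 in SM. For ADIPOR1 1 stayed in each tissue, and for CDH13 in AT 2 stayed. SPG21 moved to rank 179 for ADIPOR1 in AT, and TTC9C to rank 307 for CDH13 in SM. ADIPOR1 and ADIPOR2 themselves had r = 0.413 in AT and 0.818 in SM.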

How the data were processed

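The authors prepared stranded libraries of polyadenylated RNA, sequenced paired reads of 50 nucleotides, aligned them with STAR to the MacaM macaque genome and matched genes to human homologs. The deposited values are raw counts per gene, without normalization. Of 51 labelled samples 48 had counts, and 3 SM samples were not analysed here. Of 16103 entries, 70 repeats with identical counts were dropped. No 2 libraries held identical values.

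Genes of at least 0.5 CPM in at least 10% of a tissue's libraries were tested with edgeR 4.0.16 in R 4.3.3 (TMM, robust quasi-likelihood tests, time point and animal as terms, 1 fit per tissue, Benjamini-Hochberg adjustment over the tissue's genes). Tissues were compared in 1 fit of all 48 libraries. Log2 CPM used a prior count of 2. Ratios were tested by exact sign-flip permutation and correlations by exact permutation, both two-sided, in Python 3.11.15. The same animals were sampled at each time point: libraries of 1 animal at different time points deviated together (median r 0.352 over 25 AT pairs and 0.279 over 19 SM pairs, against -0.035 and -0.046 for different animals). Alternatives were limma 3.58.1 (voom with quality weights), DESeq2 1.42.0, scaling by library size, other filters, no replicate block, 2 time points alone, identifier series, and leaving out animals or libraries. Leaving out the SM library of animal 21189 was added after its markers were seen. The fits were tested on simulated data.

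The receptors and lists were chosen with earlier results of these data known. Named genes are the 4 receptors, their ligands, the list genes called in AT post-treatment and, as the most similar genes, the 3 with the highest r per receptor and tissue among genes of a mean of at least 1 CPM. JAK2, SOCS3, APPL1, PRKAA1, PPARA, ERP44, GSTK1 and LEPROT were named for their roles. ERO1A, STAT5B, SH2B1 and IRS2, and some markers, were not found under their symbols and are not analysed here. No sequences are shown.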

Additional observations from a re-analysis of the deposited data

Results flagged for a closer look

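LEPR in the post-treatment AT library of animal 21866 stood at 393 CPM, far above the next highest library of its group at 223 CPM. The pre-treatment AT library of that animal had 139 CPM and its washout library 85.6 CPM. The LEPR call post-treatment held without this animal. ADIPOR1 in the washout SM library of animal 22130 stood at 261 CPM, below the other 6 libraries of its group, and this library had the lowest myofibre sum of the group (198940 CPM). Both were found by comparing the gap to the nearest library with the range of the group, in 24 groups, and chance alone gives such a gap in about 1 of 20 groups.

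The change of LEPR from post-treatment to washout was called different between AT and SM (AT change minus SM change -1.54, edgeR adjusted p = 0.0222). It was called under 2 of 4 alternatives and with 5 of 10 animals left out in turn, in a comparison where 21.9% of all genes were called.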

How the results depend on the processing

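The ADIPOR1, ADIPOR2 and LEPR differences between AT and SM, the post-treatment ADIPOR2 fall and the washout LEPR fall in AT were called under all alternatives and leave-outs run for them. Of the values recomputed, 665 kept direction and side of the threshold, 44 reversed, 19 newly passed and 10 no longer passed. The cause was not tested for any of them. In AT, post-treatment LEPR was 0.75 with no replicate block and 0.83 with 2 time points alone. Washout vs post-treatment ADIPOR2 passed at 0.56 with library size alone, 0.50 with DESeq2 and 0.50 with at least 10 counts in every library. ADIPOR1 (0.0029) and CDH13 (0.0088) reversed there with library size alone, and CDH13 (0.025) with no replicate block. ADIPOR2 at washout vs pre-treatment was -0.33 with 2 time points alone. In SM post-treatment, ADIPOR1 was 0.15 with voom and 0.14 without the library of animal 21189, and ADIPOR2 was -0.044 with identifier series. At washout vs post-treatment ADIPOR2 was -0.026 with voom and ADIPOR1 0.94 with identifier series. At washout vs pre-treatment CDH13 (-0.026) and LEPR (-0.21) reversed with voom, and CDH13 was -0.069 with library size alone and -0.014 with no replicate block. CDH13 in AT vs SM was -0.39 with voom, -0.39 with DESeq2 and 0.42 with library size alone. The AT minus SM change post-treatment was 0.031 for ADIPOR1 and 0.035 for CDH13 with library size alone, and 0.011 for CDH13 without the library of animal 21189. At washout vs post-treatment it was -1.36 for LEPR with library size alone and -1.27 with no replicate block.

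With 1 animal left out at a time, AT LEPR post-treatment ranged from 0.76 to 1.04, and at washout vs post-treatment ADIPOR2 from 0.36 to 0.62 and CDH13 from -0.21 to 0.059. SM ADIPOR1 post-treatment ranged from -0.30 to 0.22 and ADIPOR2 from -0.15 to 0.26, and at washout vs pre-treatment ADIPOR2 from -0.0037 to 0.27, CDH13 from -0.020 to 0.083 and LEPR from -0.26 to 0.52. CDH13 in AT vs SM ranged from -0.46 to -0.27. The AT minus SM change ranged from -0.34 to 0.18 for ADIPOR1 and from -0.11 to 0.097 for CDH13 post-treatment, and from -1.90 to -1.18 for LEPR at washout vs post-treatment. The log2 change of the ADIPOR2 to ADIPOR1 ratio ranged from 0.46 to 0.76 (AT washout vs post-treatment), from -0.23 to -0.11 (AT washout vs pre-treatment) and from -0.080 to 0.098 (SM washout vs pre-treatment), and that of LEPR to LEPROT from -1.70 to -1.06 and from -1.57 to -0.82 (AT washout vs post-treatment and vs pre-treatment). Correlations ranged from -0.25 to 0.63 for ADIPOR1 with ADIPOR2, from -0.45 to 0.034 for ADIPOR1 with CDH13, from -0.50 to 0.20 for ADIPOR1 with LEPR, from -0.33 to 0.34 for ADIPOR2 with CDH13 and from -0.35 to 0.18 for CDH13 with LEPR.

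Counts of all genes called moved as well. AT post-treatment went from 1943 to 1000 without the pre-treatment library of animal 20275, and to 665, 877, 1139 and 1221 without animals 22130, 20275, 21189 and 21866. SM washout vs post-treatment went from 17 to 4 with library size alone, 89 with no replicate block, 359 with DESeq2, 2 with 2 time points alone, 2390 with identifier series, 2 without the library of animal 21189 and 0 to 21 with 1 animal left out. SM washout vs pre-treatment went from 3 to 674 with voom, 26 with no replicate block, 170 with DESeq2, 6 with at least 10 counts, 1278 with identifier series, 12 without that library and 0 to 14 with 1 animal left out. The interaction post-treatment went from 5 to 24 with voom, 0 in edgeR with library size alone (1056 at an unadjusted p under 0.05), 1 with no replicate block, 12 without that library and 0 to 7 with 1 animal left out, and at washout from 2702 to 1798 without animal 21189. With library size alone the genes higher and lower went from 2214 and 2329 to 2842 and 1709 (AT washout vs post-treatment), from 1611 and 1042 to 2241 and 580 (AT washout vs pre-treatment), from 5607 and 4764 to 8232 and 2336 (AT vs SM) and from 1414 and 1288 to 2217 and 731 (interaction at washout), and the median of all genes moved from -0.02 to -0.15 in SM at washout vs post-treatment and from 0.03 to 0.25 in the interaction at washout.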

Other observations

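Some pathway genes that did not pass post-treatment were DE in AT at washout. Of 20 adiponectin signaling genes, 2 rose and 2 fell from post-treatment to washout (34.0% of all genes tested were called). PRKAB1 and PRKAB2, the alternative beta subunits of AMPK, went in opposite directions, with log2 fold changes of 0.35 (edgeR adjusted p = 0.00101) and -0.67 (adjusted p = 0.00720). APPL1, the adaptor that binds the adiponectin receptors, fell (-0.41, adjusted p = 9.85e-04), and ACACB, an acetyl-CoA carboxylase that AMPK phosphorylates, rose (0.81, adjusted p = 0.0103). All 4 were called under 9 of 9 alternatives.

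Of 11 leptin signaling genes 2 were called, against the same 34.0% of all genes. PTPN11 (-0.88, edgeR adjusted p = 0.00457) and GRB2 (-0.52, adjusted p = 0.00240), which act together downstream of many receptors, fell from post-treatment to washout, and were also called lower at washout vs pre-treatment (-1.46 and -0.40, adjusted p = 8.10e-05 and 0.0183, with 19.8% of all genes called). STAT3 changed by 0.21 (adjusted p = 0.0489), short of the fold limit. Of 8 PAQR family members 4 were called at washout vs post-treatment. Beside PAQR8 and MMD, PAQR6 rose (1.39, adjusted p = 0.00526) and PAQR3 fell (-0.46, adjusted p = 0.00638). Of 7 cadherins 3 were called, and CDH5 of endothelial cells rose (0.64, adjusted p = 0.00387), and CDH2 (-1.16, adjusted p = 0.0229, called under 5 of 8 alternatives) and CDH3 (-1.79, adjusted p = 0.00412, called under 7 of 8) fell.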
